A study of Mus musculus with 6 samples.

Results

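Prostaglandin E2 (PGE2) is the main prostaglandin of inflamed and malignant colon. It is made in steps: a phospholipase A2 releases arachidonic acid from membrane lipids, a cyclooxygenase turns it into prostaglandin H2, and a PGE synthase turns that into PGE2. Of the cyclooxygenases, COX-1 is made by many cells at rest, whereas COX-2 is induced by growth factors, cytokines and hypoxia, and its transcript is short-lived. PGE2 signals in the same or a neighbouring cell through EP receptors, of which EP2 and EP4 raise cyclic AMP, and it is broken down by 15-hydroxyprostaglandin dehydrogenase.

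The 9 genes described here are members of this pathway and were chosen by name and role out of 22880 genes in the deposited table, with earlier results of these data known. They are Pla2g4a (cytosolic phospholipase A2), Ptgs1 (COX-1), Ptgs2 (COX-2), the PGE synthases Ptges, Ptges2 and Ptges3, Hpgd (the dehydrogenase) and the receptors Ptger2 (EP2) and Ptger4 (EP4). All 9 were listed in the table. Of these, 6 had enough reads to be tested, and Hpgd, Ptger2 and Ptger4 did not.

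MC-38GFP cells, derived from a colon adenocarcinoma of the mouse, express green fluorescent protein (GFP). They grew as orthotopic tumors in the cecum of mice and were then sorted as living GFP+ cells without CD45 or CD31, the surface markers of leukocytes and endothelium. The study compared 3 libraries of Mock cells with 3 libraries of HIF-1α-KD cells, in which Hif1a, the oxygen-regulated subunit of the hypoxia-inducible factor HIF-1, was knocked down. Cells of both groups had been transduced with pLKO.1-puro, a lentiviral vector for short hairpin RNA that confers resistance to puromycin, and neither group had been passaged in vivo. The knock-down is in the injected tumor cells, and the other cells of the mice keep Hif1a. The study's methods describe Mock as nontarget hairpin controls, beside the vectors of another knock-down. The labels give no age of the mice and do not say whether a library is 1 tumor or a pool. The p-values below therefore measure the spread between these libraries, which may be technical.

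Reads on genes were between 19845873 and 30809020 per library, and the 10 most abundant genes took between 6.21% and 8.23% of them. Of 12014 genes tested, 0.391% had an adjusted p under 0.05. The 9 markers of colon epithelium were low and summed to 66.0 to 135 normalized counts in 5 libraries and to 594 in Mock 3, which stood apart. Epcam had between 2.3 and 7.4 normalized counts in 5 libraries and 37.4 in Mock 3, and Cdx2 had at most 2.4. The fibroblast and mural markers summed to between 23390 and 50156 normalized counts, with Dcn the most abundant of them. Of 3 tested epithelial markers 0 passed at an unadjusted p under 0.05 with a fold change of at least 1.5, and of 7 tested fibroblast and mural markers 2 did, Pdgfrb and Rgs5, both higher in HIF-1α-KD cells, where 4.02% of all genes passed in the higher direction and 7.48% in either. Leukocyte markers were present in all libraries and were highest in HIF-1α-KD 3, where the sum of 12 markers was 13765 normalized counts against 2630 to 4432 in the other 5. Hif1a itself had 6914, 5424 and 4945 normalized counts in the Mock libraries against 697.3, 3142 and 1928 in the HIF-1α-KD libraries. The groups did not overlap, with a log2 difference of -1.82 (SE 0.46, n = 3 per group, limma adjusted p = 0.219 with Benjamini-Hochberg adjustment). It was -1.21 without HIF-1α-KD 1 and -2.30 without HIF-1α-KD 2.

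Of the 6 tested members, Ptgs2, the gene of COX-2, had the largest difference, and its transcript was lower in HIF-1α-KD cells. In normalized counts, which are reads divided by 1 factor per library, Ptgs2 (ENSMUSG00000032487, GRCm38 chr1:150100031-150108227, plus strand) had 1811, 1145 and 1731 in Mock 1, 2 and 3 and 812.4, 682.3 and 903.3 in HIF-1α-KD 1, 2 and 3. Every HIF-1α-KD library was below every Mock library, and the nearest pair was Mock 2 and HIF-1α-KD 3. The mean was 1562 ± 364 (SD, n = 3) in Mock against 799 ± 111 (SD, n = 3) in HIF-1α-KD cells, and on the log2 scale of the normalized count plus 1 the difference was -0.95 (SE 0.21, 95% interval -1.43 to -0.47), so that Mock cells had 1.93-fold more. By the moderated test of limma the unadjusted p was 0.00163, number 116 from the smallest of 12014 genes, and the p adjusted by Benjamini-Hochberg over all of them was 0.169. Ptgs2 thus passed the criterion of an unadjusted p under 0.05 with a fold change of at least 1.5, which 3.46% of all genes passed in the lower direction, and it did not pass at an adjusted p under 0.05. In bulk RNA of sorted cells, fewer cells that make a transcript and less transcript per cell cannot be told apart.

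Ptgs1, the gene of COX-1 (ENSMUSG00000047250, chr2:36230426-36252272, plus strand), was scarce and had its highest value in a HIF-1α-KD library. It had 41.86, 19.14 and 24.16 normalized counts in the Mock libraries against 13.67, 19.19 and 75.08 in the HIF-1α-KD libraries, which correspond to between 16 and 65 reads. HIF-1α-KD 3 was the highest library and HIF-1α-KD 1 the lowest, and the groups overlapped. The log2 difference was 0.02 (SE 0.65, 95% interval -1.45 to 1.48, limma adjusted p = 0.994), so the interval spans more than a doubling in either direction. Without HIF-1α-KD 3 it was -0.70 (limma adjusted p = 0.616). Per length, in FPKM (fragments scaled by the length of the gene and by the reads of the library), Ptgs2 exceeded Ptgs1 in every library, 19.6-, 27.0- and 32.4-fold in Mock against 26.9-, 16.1- and 5.44-fold in HIF-1α-KD cells. These ratios overlapped between the groups, and HIF-1α-KD 3 gave the lowest of the 6.

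The promoters of both cyclooxygenase genes and of the PGE synthases Ptges and Ptges2 are shown for comparison, because HIF-1 binds DNA at a short core, ACGTG or GCGTG, and because Ptgs2 passed the unadjusted criterion where the other 3 did not. Each runs 5′ to 3′ on the strand of the gene, from 250 bases before to 30 bases after the transcript start in RefSeq on GRCm38.p6, and capitals mark the core on either strand.
Ptgs2, chr1:150099781-150100060, plus strand: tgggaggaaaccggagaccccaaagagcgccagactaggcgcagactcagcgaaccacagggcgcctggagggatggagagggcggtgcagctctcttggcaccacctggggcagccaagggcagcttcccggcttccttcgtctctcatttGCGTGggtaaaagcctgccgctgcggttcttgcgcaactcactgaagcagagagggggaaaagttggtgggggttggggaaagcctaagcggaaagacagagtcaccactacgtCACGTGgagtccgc
Ptgs1, chr2:36230176-36230455, plus strand: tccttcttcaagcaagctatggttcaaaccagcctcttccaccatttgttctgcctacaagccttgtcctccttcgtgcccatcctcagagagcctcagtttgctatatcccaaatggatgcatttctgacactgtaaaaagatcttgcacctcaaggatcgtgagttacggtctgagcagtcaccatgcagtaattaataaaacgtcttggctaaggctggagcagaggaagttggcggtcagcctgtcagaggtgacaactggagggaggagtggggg
Ptges, chr2:30903268-30903547, minus strand: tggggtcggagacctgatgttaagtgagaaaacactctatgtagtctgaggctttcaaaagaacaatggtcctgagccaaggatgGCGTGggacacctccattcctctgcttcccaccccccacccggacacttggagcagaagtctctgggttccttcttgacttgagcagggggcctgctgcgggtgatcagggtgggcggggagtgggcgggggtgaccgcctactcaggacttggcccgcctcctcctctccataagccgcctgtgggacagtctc
Ptges2, chr2:32395640-32395919, plus strand: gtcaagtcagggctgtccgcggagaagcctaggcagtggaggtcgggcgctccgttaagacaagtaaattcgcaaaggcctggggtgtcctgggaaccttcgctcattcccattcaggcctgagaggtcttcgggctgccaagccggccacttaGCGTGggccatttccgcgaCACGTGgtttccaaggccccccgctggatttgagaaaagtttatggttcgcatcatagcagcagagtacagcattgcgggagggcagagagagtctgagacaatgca
The Ptgs2 window held the core at positions -98 to -94 and, on both strands as the palindrome CACGTG, at positions 17 to 22, counted from the transcript start as 1. The letters TGACG, a part of the cyclic AMP response element, were on the opposite strand at positions 14 to 18 and overlap that palindrome. The Ptges2 window held the palindrome at -77 to -72 and GCGTG at -96 to -92, the Ptges window held GCGTG at -165 to -161, and the Ptgs1 window held no core. All 9 genes matched RefSeq, with 10 windows since Pla2g4a has 2 starts. Searched on both strands over the full windows, which reach 50 bases past the start, 6 of the 10 held ACGTG or GCGTG, as did 43.8% of 32851 mouse promoters. A loose form of the NF-κB site, GGG and CC with any 5 bases between them, was in 5 of 10 windows and in 50.8% of all. TGACGTCA, the complete cyclic AMP response element, was in 0 of 10 and in 1.79% of all. Its part TGACG was in 2 of 10, those of Ptgs2 and Ptges3, and in 20.8% of all. Ptges2 carried the same palindrome as Ptgs2 and had overlapping groups, as given below. Whether these letters go with a difference between the groups was not tested. These matches describe letters and not binding, which was not measured.

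Pla2g4a encodes the enzyme that supplies most arachidonic acid to the cyclooxygenases, and lies on the same chromosome as Ptgs2 (ENSMUSG00000056220, chr1:149829618-149961290, minus strand). Its normalized counts were 1210, 849.8 and 677.7 in Mock against 962.8, 724.2 and 682.7 in HIF-1α-KD cells. The groups overlapped, with the highest and the lowest library both in Mock. The mean was 913 ± 272 in Mock against 790 ± 151.2 in HIF-1α-KD cells (SD, n = 3 each), a log2 difference of -0.18 (SE 0.24, 95% interval -0.73 to 0.36, limma adjusted p = 0.791). An rRNA gene, n-R5s219, overlaps Pla2g4a on the opposite strand, and whether the authors counted by strand is not given in the sources used here.

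The transcript level of Ptgs2 was also set against that of Pla2g4a, the gene of the enzyme that feeds COX-2. The FPKM ratio of Ptgs2 to Pla2g4a, chosen after the values had been seen, was 1.07, 0.961 and 1.82 in Mock against 0.602, 0.673 and 0.944 in HIF-1α-KD cells. The groups did not overlap, by the narrow gap between 0.961 in Mock 2 and 0.944 in HIF-1α-KD 3. The mean log2 ratio differed by -0.76, and by between -0.95 and -0.48 when a library was left out. Since Pla2g4a differed by -0.18, most of this difference is that of Ptgs2 itself, and the ratio adds no independent support.

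**Figure D1:**
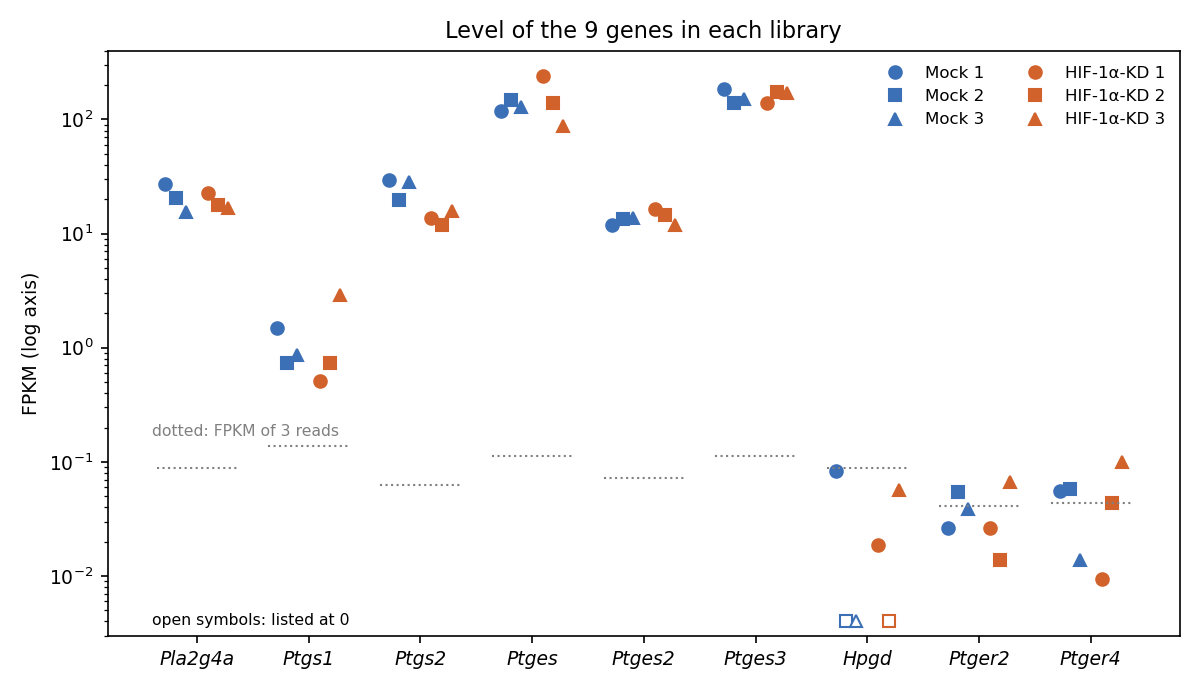
Level of each of the 9 genes in each library in FPKM on a log axis, with Mock in blue, HIF-1α-KD in orange and the symbol giving the library number. Dotted lines give the FPKM of 3 reads in the library where it is highest, and open symbols at the bottom stand for values listed at 0. Ptges and Ptges3 lie near or above 100 FPKM, and Hpgd, Ptger2 and Ptger4 lie below 0.1.

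Among the PGE synthases, Ptges is the microsomal enzyme that is induced together with COX-2 in many cells. Its gene is ENSMUSG00000050737, at chr2:30889471-30929863 on the minus strand. Its normalized counts were 4081, 4750 and 4357 in Mock against 7885, 4428 and 2772 in HIF-1α-KD cells. HIF-1α-KD 1 was the highest and HIF-1α-KD 3 the lowest of the 6 libraries, with all Mock libraries between them. The means were 4396 ± 336 and 5028 ± 2609 (SD, n = 3 each), with a coefficient of variation of 7.65% in Mock against 51.9% in HIF-1α-KD cells. The log2 difference was 0.07 (SE 0.32, 95% interval -0.67 to 0.80, limma adjusted p = 0.949). It was -0.32 without HIF-1α-KD 1 and 0.43 without HIF-1α-KD 3, so its direction depended on the library left out.

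Ptges2, a Golgi-bound PGE synthase, is ENSMUSG00000026820 at chr2:32395896-32405772 on the plus strand. It had 641.4, 671.8 and 728.4 normalized counts in Mock against 851.8, 721.8 and 592.6 in HIF-1α-KD cells. Its HIF-1α-KD libraries had the order of Ptges, with library 1 highest and library 3 lowest, and they enclosed the Mock libraries. The log2 difference was 0.07 (SE 0.18, 95% interval -0.34 to 0.48, limma adjusted p = 0.899). The FPKM ratio of Ptges to Ptges2 was 10, 11.1 and 9.41 in Mock against 14.5, 9.64 and 7.35 in HIF-1α-KD cells, and the groups overlapped.

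Ptges3 is the cytosolic PGE synthase, known also as p23, a co-chaperone of Hsp90 made by nearly all cells. Its gene is ENSMUSG00000071072, at chr10:128058954-128077272 on the plus strand. It had 6291, 4406 and 5119 normalized counts in Mock against 4609, 5457 and 5331 in HIF-1α-KD cells. The groups overlapped, and Mock held both the highest and the lowest value. The means were 5272 ± 952 and 5132 ± 458 (SD, n = 3 each), and the log2 difference was -0.03 (SE 0.16, 95% interval -0.40 to 0.35, limma adjusted p = 0.958). This interval was the narrowest of the 6 tested members. GENCODE also lists a processed pseudogene, Ptges3-ps, which was not analysed here, so the Ptges3 values are uncertain where reads could match both.

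To set the COX-2 transcript against that of a synthase that follows it, the FPKM ratio of Ptgs2 to Ptges was also examined, after the values had been seen. It was 0.245, 0.133 and 0.219 in Mock against 0.0569, 0.0851 and 0.180 in HIF-1α-KD cells. In all libraries Ptges had the higher transcript level, and the groups overlapped through Mock 2 and HIF-1α-KD 3. The mean log2 ratio differed by -1.01, between -1.47 and -0.64 with a library left out.

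The genes that remove PGE2 or receive its signal were at the limit of detection. Hpgd (chr8:56294585-56321043, plus strand) had 3, 0 and 0 reads in Mock against 1, 0 and 2 in HIF-1α-KD cells, 6 in all. Ptger2 (chr14:44988195-45003820, plus strand) had 2, 5 and 3 reads in Mock against 3, 1 and 5 in HIF-1α-KD cells. Ptger4 (chr15:5206661-5244187, minus strand) had 4, 5 and 1 reads in Mock against 1, 3 and 7 in HIF-1α-KD cells. For all 3 the groups overlapped, no fold change is given, and a difference was not detectable at this depth. In HIF-1α-KD 2, the library with the fewest reads, the 0 reads of Hpgd allow up to 3 reads, or 0.0879 FPKM, a limit that covers counting error only. Ptger4 overlaps the coding gene Ttc33 on the opposite strand, so even these few reads may not all be its own. Of the other EP receptors, Ptger1 had 4, 5 and 2 reads in Mock against 9, 24 and 8 in HIF-1α-KD cells, and Ptger3 had 1 read in all 6 libraries.

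Ordered by length-corrected level, the 9 genes formed 4 tiers that did not overlap. Ptges3 (158 ± 24.0 FPKM in Mock against 160 ± 17.9 in HIF-1α-KD cells, SD, n = 3) and Ptges (132 ± 15.0 and 156 ± 76.9) stood highest, and their libraries overlapped with each other in both groups. Pla2g4a, Ptgs2 and Ptges2 followed at between 11.9 and 29.29 FPKM, and no library of these reached the lowest Ptges value of 87.86. Ptgs1 lay below them at between 0.5062 and 2.903 FPKM, above the receptors and Hpgd in every library. Among the tested genes of each library, Ptges3 lay between percentile 93.2 and 95.3, Ptgs2 between 45.2 and 69.7, and Ptgs1 between 7.82 and 20.2.

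The order differed between the groups in the tier of Pla2g4a, Ptgs2 and Ptges2. In Mock, Ptgs2 (19.78 to 29.29 FPKM) overlapped with Pla2g4a (15.42 to 27.43) and lay above every Ptges2 value, the highest of which was 13.64. In HIF-1α-KD cells, Ptgs2 (11.9 to 15.8 FPKM) lay below every Pla2g4a value, the lowest of which was 16.73, and overlapped with Ptges2 (11.95 to 16.45). The gap of 16.73 to 15.8 FPKM was small beside the spread of either gene. The ranges of Pla2g4a and of Ptges2 overlapped between the groups, and those of Ptgs2 did not.

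**Figure D2:**
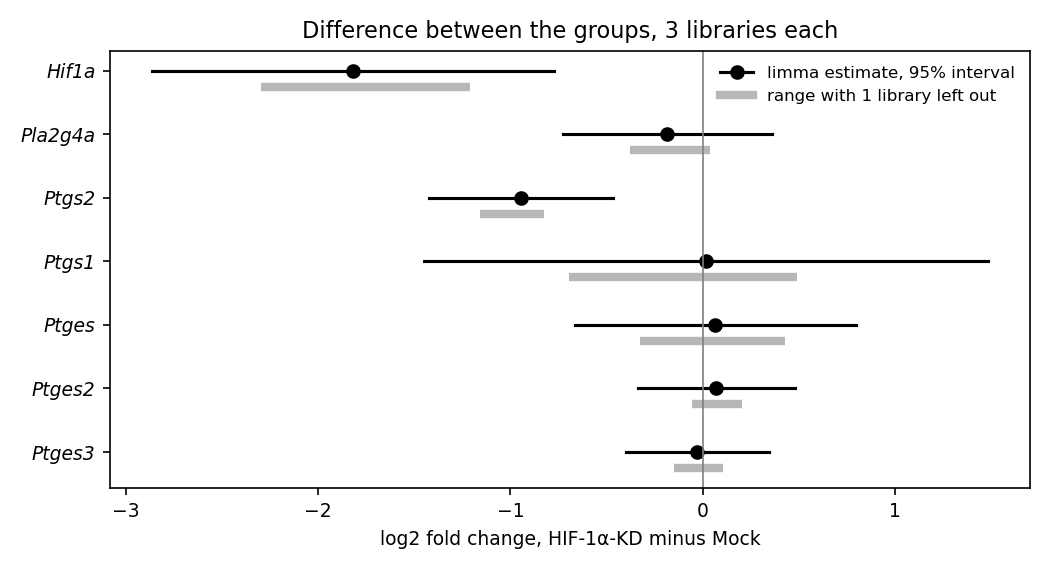
Difference between HIF-1α-KD and Mock cells on the log2 scale for Hif1a and the 6 tested members, 3 libraries per group. Points and black lines give the limma estimate with its 95% interval, and grey bars the range of estimates with 1 library left out. The interval of Ptgs2 runs from -1.43 to -0.47, and those of the other 5 members include 0.

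Counted over the 6 tested members, 0 had an adjusted p under 0.05 by limma with Benjamini-Hochberg adjustment, where 0.391% of all genes had one. At an unadjusted p under 0.05 with a fold change of at least 1.5, 1 of 6 passed, where 7.48% of all genes did in either direction. The same gene, Ptgs2, was the 1 of 6 without overlap of the groups, and 19.2% of all genes had no overlap. Log2 differences were below 0 for 3 of the 6, with a median of -0.0047 against 0.02 over all genes tested. DESeq2, run on reads recovered from the table, gave 1 member at an adjusted p under 0.05, where it gave 2.36% of all genes. This member was Ptgs2, with a log2 difference of -0.98 and an adjusted p of 0.00356. The quasi-likelihood test of edgeR on the same reads gave Ptgs2 an adjusted p of 0.142.

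Leukocyte markers moved with some members. Their sum was 4288, 4211 and 4432 normalized counts in Mock against 2630, 2932 and 13765 in HIF-1α-KD cells, and 0 of the 10 tested markers had an unadjusted p under 0.05 by limma, beside 12.7% of all genes. Lyz2 was the largest single part of the sum, with 2345, 2369 and 2615 in Mock against 1715, 1902 and 8877 in HIF-1α-KD cells. Ptprc, the gene of CD45, on which cells were sorted out, had 112, 89.0 and 118 normalized counts in Mock against 40.2, 58.8 and 223 in HIF-1α-KD cells. Ptgs1 was highest in HIF-1α-KD 3, as were Tbxas1, thromboxane synthase, with 131.7 normalized counts against 22.78 to 48.01 elsewhere, and Hpgds, a prostaglandin D synthase of hematopoietic cells, with 47.36 against 7.194 to 35.7. These genes are known from platelets, macrophages and mast cells, and 4 of 5 mast cell markers were at 0 in all libraries. The part of leukocytes in the Ptgs1 values was not tested.

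For Ptgs2 the marker values pointed to different libraries. HIF-1α-KD 1 and 2 had both lower leukocyte sums and lower Ptgs2 than Mock, whereas HIF-1α-KD 3 had a leukocyte sum above that of any other library and 903.3 normalized counts of Ptgs2, below every Mock library. Without Mock 3, the library with the highest epithelial sum, the log2 difference of Ptgs2 was -0.86 (limma adjusted p = 0.325). Without HIF-1α-KD 3, the log2 difference of Ptgs2 was -1.04 (limma adjusted p = 0.167), and over all libraries left out in turn it was between -1.16 and -0.83. Endothelial markers summed to 592 to 705 normalized counts in Mock against 411 to 574 in HIF-1α-KD cells, with no overlap, and the largest single part of it was Cdh5, with 422.3 to 568.9 in Mock against 197.5 to 395.7 in HIF-1α-KD cells. Of 4 tested, 1 was lower at an unadjusted p under 0.05 with a fold change of at least 1.5 (Cdh5), beside 3.46% of all genes in the lower direction, and the log2 differences of the other 3 were above 0, at 1.26 for Tek, 0.26 for Pecam1, the gene of CD31, and 0.12 for Egfl7. The median of the 4 was 0.19. Ptges and Ptges2 ran opposite to the leukocyte sum within the HIF-1α-KD libraries, with the lowest values in HIF-1α-KD 3. The part of other cells in these values was not tested.

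**Figure D3:**
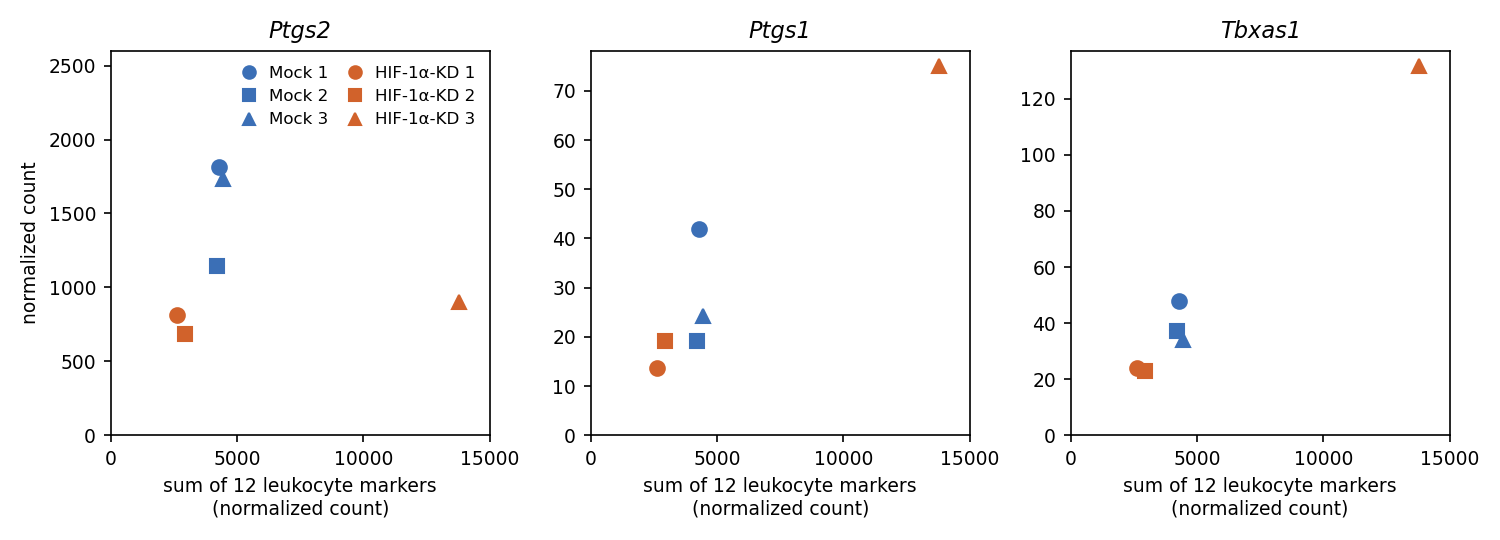
Normalized counts of Ptgs2, Ptgs1 and Tbxas1 against the summed normalized counts of 12 leukocyte markers, 1 point per library, with Mock in blue and HIF-1α-KD in orange. HIF-1α-KD 3 lies far to the right at a sum of 13765 and is the highest library for Ptgs1 and Tbxas1, while its Ptgs2 value of 903.3 lies below the 3 Mock libraries.

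The rest of the pathway was examined in 8 lists of 121 genes, of which 119 were in the table and 84 were tested. At an unadjusted p under 0.05 with a fold change of at least 1.5, 3 were higher and 7 lower in HIF-1α-KD cells, which is 11.9% beside the 7.48% of all genes tested. At an adjusted p under 0.05 by limma with Benjamini-Hochberg adjustment, 0 passed. The 10 genes were spread over the lists of transcription factors, RNA-binding proteins and EP2 and EP4 signal transduction. The other 5 lists held 0, and whether the lists differ in this was not tested. The count was 14 without Mock 3 or without HIF-1α-KD 3 and 7 without Mock 1 or without Mock 2.

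**Figure D4:**
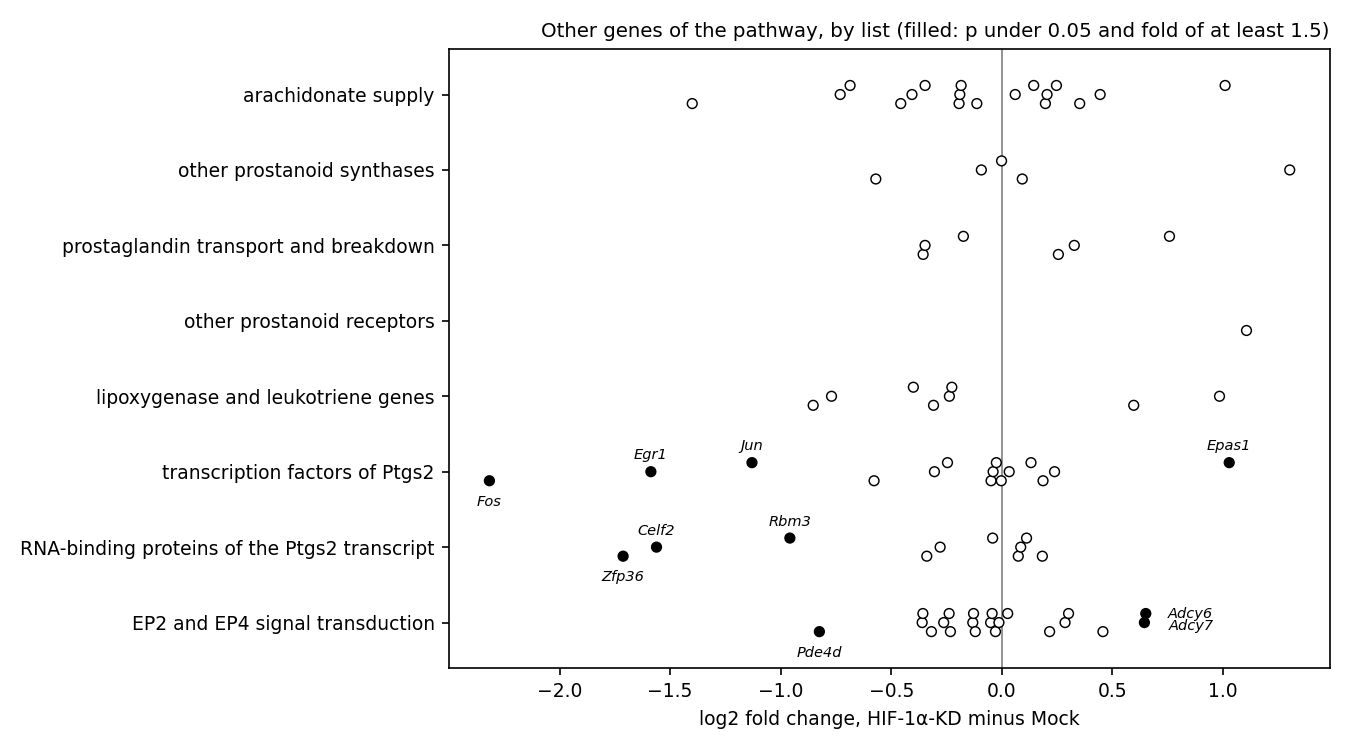
Log2 difference between HIF-1α-KD and Mock cells for the 84 tested genes of 8 pathway lists, 1 point per gene. Filled points are the 10 genes with a fold change of at least 1.5 and an unadjusted p under 0.05, which lie in the 3 lists at the bottom, 7 of them below 0.

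The lists around the synthesis and reception of prostaglandins were small beside the 7.48% of all genes that passed in either direction, so their counts of 0 are near that share. In arachidonate supply, 0 of 18 tested genes passed, and the median log2 difference was -0.15. Acsl3, which couples fatty acids to coenzyme A, had 1548 ± 231 normalized counts in Mock against 2102 ± 253 in HIF-1α-KD cells (SD, n = 3, log2 difference 0.45, limma adjusted p = 0.339). Pla2g12a, a secreted phospholipase A2, had 986 ± 27.3 and 725 ± 129 (-0.46, limma adjusted p = 0.340). Both were below an unadjusted p of 0.05 but not past the fold limit. Pla2g2e, another secreted phospholipase A2, had 65.25, 19.14 and 15.7 normalized counts in Mock against 4.826, 11.99 and 15.02 in HIF-1α-KD cells, with Mock 1 far above the other 5 libraries and a log2 difference of -1.40.

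The other prostanoid synthases gave 0 of 5 tested genes, beside 7.48% of all genes. Akr1b8, an aldo-keto reductase, was abundant at 3544 ± 538 normalized counts in Mock against 3320 ± 455 in HIF-1α-KD cells (SD, n = 3, log2 difference -0.09). Ptgds, the lipocalin-type prostaglandin D synthase, had 1.231, 6.699 and 21.74 in Mock against 32.17, 5.995 and 24.26 in HIF-1α-KD cells, and its groups overlapped. Of prostaglandin transport and breakdown, 0 of 6 passed, beside the same share. Slco3a1, a prostaglandin transporter of the organic anion family, had 189.6, 216.3 and 327.4 normalized counts in Mock against 616.9, 400.5 and 264.5 in HIF-1α-KD cells (log2 difference 0.76, limma adjusted p = 0.393), with overlap. Abcc4, an exporter of PGE2, had 496 ± 65.3 and 620 ± 15.7 (0.33, limma adjusted p = 0.459), and Ptgr2, a prostaglandin reductase, had 832 ± 208 and 642 ± 34.0 (-0.35, limma adjusted p = 0.507).

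The other prostanoid receptors were scarce too, with between 0 and 53 reads each over all 6 libraries, beside 19 for Ptger2 and 21 for Ptger4. Of 7 in the table, only the prostacyclin receptor Ptgir had enough reads to be tested, with 3, 14 and 1 reads in Mock against 4, 19 and 12 in HIF-1α-KD cells (log2 difference 1.11, limma adjusted p = 0.656). Ptgdr had 0 reads in all 6 libraries. Lipoxygenase and leukotriene genes, the other branch from arachidonic acid, gave 0 of 8 tested, beside 7.48% of all genes, with a median log2 difference of -0.27. Lta4h, leukotriene A4 hydrolase, was abundant and had 5143 ± 587 normalized counts in Mock against 4397 ± 491 in HIF-1α-KD cells (SD, n = 3, -0.23, limma adjusted p = 0.563). Dpep2, a dipeptidase that converts leukotriene D4, had 78.4 ± 7.26 and 46.0 ± 21.8 (-0.85, limma adjusted p = 0.394), and Ggt5 had 10.03 ± 7.91 and 18.9 ± 8.29 (0.98, limma adjusted p = 0.564). Of the lipoxygenases proper, Alox5 had 15 reads and Alox15 had 8 reads in all 6 libraries.

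Of 15 tested transcription factors known to act on Ptgs2, 3 were lower (Fos, Egr1 and Jun) and 1 higher (Epas1) by the unadjusted criterion, which 3.46% of all genes passed in the lower and 4.02% in the higher direction. The list had a median log2 difference of -0.04. Fos, a subunit of AP-1, had 9478, 11390 and 5560 normalized counts in Mock against 343.4, 3343 and 4210 in HIF-1α-KD cells. Egr1, a zinc finger factor of the early response to growth factors, had 7477, 9425 and 8239 in Mock against 989.3, 3785 and 5712 in HIF-1α-KD cells. Neither gene overlapped between the groups, and HIF-1α-KD 1 was the lowest library for both.

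The log2 difference was -2.32 (SE 0.82, limma adjusted p = 0.324) for Fos and -1.59 (SE 0.54, limma adjusted p = 0.311) for Egr1. Jun, the partner of Fos in AP-1, had 9142, 13110 and 9567 normalized counts in Mock against 2686, 6022 and 6762 in HIF-1α-KD cells (-1.13, SE 0.33, limma adjusted p = 0.261). These are immediate early genes, known from responses to growth factors and stress. Cebpb, a factor of inflammatory genes, was lower at an unadjusted p of 0.0281 but short of the fold limit, with 311 ± 64.8 and 205 ± 9.60 normalized counts (SD, n = 3). Epas1, which encodes HIF-2α, was named after its values were seen as the single higher gene of this list, and had 25.85, 90.91 and 71.27 normalized counts in Mock against 117.4, 129.5 and 97.03 in HIF-1α-KD cells (1.03, limma adjusted p = 0.393). It was scarce, at between 0.1898 and 1.025 FPKM, and its unadjusted p by limma, 0.0498, was just under the limit. The study states, from earlier work, that HIF-1α is the only HIF subunit of this kind in MC-38 cells.

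RNA-binding proteins that act on the Ptgs2 transcript gave 3 lower and 0 higher of 10 tested, beside the same 3.46% and 4.02% of all genes, with a median log2 difference of -0.16. Celf2, also called CUGBP2, binds AU-rich parts of the COX-2 transcript, and had 3502, 2836 and 1970 normalized counts in Mock against 647.5, 937.7 and 1250 in HIF-1α-KD cells. The groups did not overlap, and the log2 difference was -1.56 (SE 0.28, limma adjusted p = 0.0827), the smallest adjusted p in the 8 lists. Zfp36, tristetraprolin, which speeds the decay of AU-rich transcripts, had 2370, 3889 and 2256 in Mock against 367.6, 1204 and 1330 in HIF-1α-KD cells (-1.71, SE 0.46, limma adjusted p = 0.238). Rbm3, a cold-inducible protein, had 12893 ± 3485 and 6542 ± 1078 (SD, n = 3, -0.96, limma adjusted p = 0.161). Tristetraprolin and Celf2 are known as inhibitors of COX-2 synthesis, whereas Rbm3 is known to support the translation of COX-2.

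**Figure D5:**
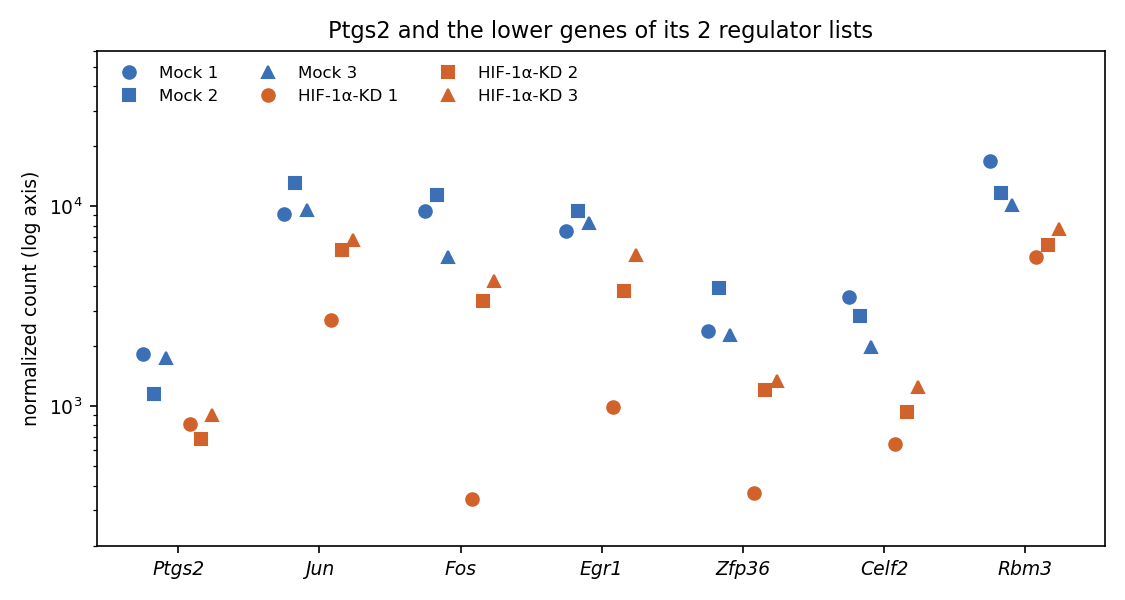
Normalized counts on a log axis of Ptgs2, the 3 lower transcription factors and the 3 lower RNA-binding proteins in each library, with Mock in blue, HIF-1α-KD in orange and the symbol giving the library number. All Mock libraries lie above all HIF-1α-KD libraries for the 7 genes, and 19.2% of all genes had no overlap in either direction. The 7 genes passed the unadjusted criterion in the lower direction in these same libraries, so their lack of overlap adds no support. HIF-1α-KD 1 is the lowest library for every gene but Ptgs2.

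Library by library, Ptgs2 had the same order as none of these genes or Hif1a, in either group. An order of 3 libraries cannot decide on a link between genes, and such a link was not tested. HIF-1α-KD 1 had the lowest Hif1a, Fos, Egr1, Jun, Zfp36, Celf2 and Rbm3, but its Ptgs2 value of 812.4 normalized counts lay between those of the other two. In Mock, Fos, Egr1, Jun and Zfp36 were highest in Mock 2, the library with the lowest Ptgs2 of that group, whereas Celf2, Rbm3 and Hif1a were highest in Mock 1, which also had the highest Ptgs2. With HIF-1α-KD 1 left out, the log2 difference of Ptgs2 was -0.96 (limma adjusted p = 0.201).

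EP2 and EP4 signal transduction, the cyclic AMP branch below the receptors, gave 2 higher and 1 lower of 21 tested genes, beside 4.02% and 3.46% of all genes, with a median log2 difference of -0.05. The adenylate cyclases Adcy6 and Adcy7 were higher, at 1048 ± 208 and 1646 ± 376 normalized counts for Adcy6 (SD, n = 3, 0.65, limma adjusted p = 0.299) and 1798 ± 525 and 2783 ± 521 for Adcy7 (0.65, limma adjusted p = 0.315). The groups of Adcy6 did not overlap and those of Adcy7 did. Pde4d, a phosphodiesterase that degrades cyclic AMP, was lower, with 220.4, 259.3 and 209 normalized counts in Mock against 103.8, 129.5 and 158.2 in HIF-1α-KD cells (-0.82, SE 0.24, limma adjusted p = 0.261), without overlap. Upstream of them, Ptger2 and Ptger4 had at most 7 reads in any library.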

How the data were processed

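RNA of sorted MC-38GFP cells was sequenced in 3 Mock and 3 HIF-1α-KD libraries, grouped by the condition in their labels. Per the methods and the submitters' processing notes, the authors used STAR for alignment, featureCounts for counting and DESeq2 for testing. The notes name GRCm38 and also edgeR. The methods name GRCh38, whereas the genes of the table carry mouse identifiers.

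The deposited normalized counts (a signal) are reads that the authors divided by 1 factor for each library. The deposited FPKM values were computed by the authors from reads, the length of the gene and the reads of the library. The deposited GC content, a fraction, was used for no result. The deposited log2 ratio, p-value and false discovery rate hold the authors' own comparison and were not used. Rescaled by these factors, 100% of values up to 300 reads were whole numbers (tolerance 0.1 reads).

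A filter on recovered reads (filterByExpr, edgeR 4.0.16, minimum count of 10) left 12014 genes. The test was limma 3.58.1 with its trend option, applied to log2 values of the normalized count with 1 added, two-sided, with Benjamini-Hochberg adjustment over these genes. Fold changes on this scale understate those of low genes. Alternatives were edgeR and DESeq2 1.42.0 on recovered reads, limma without its trend option, and other scalings. Further alternatives were pseudocounts of 0.1 and 10, no filter, a replicate block and leaving out each library. The scripts were tested on simulated data. R 4.3.3 and Python 3.11.15 were used. Positions come from GENCODE M21 and promoters from RefSeq, both on GRCm38.

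The 9 members, the pathway lists and the marker lists were chosen with earlier results of these data known, and the 2 ratios of Ptgs2 to Pla2g4a and to Ptges after seeing the values. Named are the members, Hif1a, and of each pathway list the 3 tested genes with the smallest p and any with an adjusted p under 0.05. Other genes named (Tbxas1, Cebpb, Epas1, single markers and genes given by reads) were picked after their values were seen. Floors of 3 reads cover counting error only.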

Additional observations from a re-analysis of the deposited data

How the results depend on the processing

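Ptgs2 was lower in HIF-1α-KD cells under every alternative run, with log2 differences between -1.16 and -0.83 when a library was left out and limma adjusted p between 0.110 and 0.448. The number of members at an adjusted p under 0.05 was 0 under limma and edgeR and 1 under DESeq2, and it stayed 0 with each library left out. The other tested members had no stable direction: with a library left out, log2 differences ranged from -0.38 to 0.041 for Pla2g4a, -0.70 to 0.49 for Ptgs1, -0.32 to 0.43 for Ptges, -0.055 to 0.21 for Ptges2 and -0.15 to 0.11 for Ptges3. Scaling by library total, which moved the median of all genes to 0.08, gave Ptges3 0.029, and TMM scaling gave Ptgs1 -0.0034. The same numbers in both groups do not pair the libraries by the labels, and deviations of same-numbered libraries correlated at -0.14, -0.12 and 0.02. A replicate block left Ptgs2 at -0.95 (adjusted p = 0.160), 0 members at an adjusted p under 0.05 and 1 at the unadjusted criterion. Over all genes, limma called 1 higher and 46 lower, edgeR 0 and 47, and DESeq2 96 and 187. Limma without its trend option called 0 and 1, with Ptgs2 at an adjusted p of 0.257. With the trend option, limma called 0 and 0 with the block, without Mock 3 or without HIF-1α-KD 2 (1324 genes at an unadjusted p under 0.05 with the block). The pathway lists held between 7 and 14 genes past the unadjusted criterion with a library left out. With 3 libraries per group, an exact permutation test of 1 gene cannot go below 0.1, and Hpgd, Ptger2 and Ptger4 are limited by reads.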
